A study of Mus musculus with 20 samples.

Results

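The MHC class II genes and their transactivator were followed as a set of 10 genes, H2-Aa, H2-Ab1, H2-Eb1, H2-DMa, H2-DMb1, H2-DMb2, H2-Oa, H2-Ob, Cd74 and Ciita, chosen by symbol. All 10 were present in both gene tables, among 16740 genes for pooled spleen and peripheral lymph nodes (pLNs) and 16784 genes for mesenteric lymph nodes (mLNs), and all 10 had at least 1 count in total in each table. The set was picked because of its levels in Treg cells of spleen and pLNs, where the knockout was compared with WT, so that comparison is described below without a test.

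The libraries came from C57BL/6 mice at 14 weeks of age in which YFP-Cre is expressed from the Foxp3 locus. Knockout mice (Tet2/3 DKO) also carried floxed alleles of Tet2 and Tet3, the TET dioxygenases that oxidise methylated cytosine in DNA, so deletion takes place in cells that express Foxp3. Controls (WT) carried Foxp3-Cre with unfloxed genes. From each genotype, Treg cells (labelled CD4+Foxp3+ and sorted as CD4+YFP+) and CD4+Foxp3- T cells (sorted as CD4+YFP-) were profiled by stranded poly(A) RNA-seq, with 2 libraries a group in spleen and pLNs and 3 libraries a group in mLNs, 20 in all. The Foxp3- cells of DKO mice do not express the Cre when sorted, but they come from inflamed animals and can include cells that once expressed Foxp3. Both DKO mice behind the spleen and pLN libraries were littermates, 1 of them with the more severe splenomegaly, and the labels do not say which number that animal has. Nothing in the labels says how far replicates share a litter or a day, so p-values measure the spread between these libraries.

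MHC class II molecules present peptides from endocytosed protein to CD4+ T cells. The classical molecules are dimers of an alpha and a beta chain: H2-Aa and H2-Ab1 encode the 2 chains of I-A, and H2-Eb1 encodes the beta chain of I-E, whose alpha chain is not made in C57BL/6 mice. Cd74, the invariant chain, occupies the groove until the peptide loading compartment is reached, where H2-DM (H2-DMa with H2-DMb1 or H2-DMb2) exchanges its remnant for peptide and H2-DO (H2-Oa with H2-Ob) restrains H2-DM. Ciita is the coactivator that RFX, CREB and NF-Y recruit at class II promoters. Dendritic cells, macrophages and B cells are the main producers, and mouse T cells are generally held to make little class II of their own.

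Of the 10 genes, 8 lay within 223.9 kb of chromosome 17 (NCBIM37, the build the files use). From the first to the last they were H2-Oa (chr17:34229285-34232179), H2-DMa (chr17:34272127-34276046), H2-DMb2 (chr17:34280252-34288498), H2-DMb1 (chr17:34290017-34297168), H2-Ob (chr17:34375848-34390850), H2-Ab1 (chr17:34400154-34406363), H2-Aa (chr17:34406276-34424772) and H2-Eb1 (chr17:34442828-34453144). Ciita lay at chr16:10480237-10527657. H2-Aa is on the minus strand and its end overlaps that of H2-Ab1, so their counts rest on the strand of the reads. H2-DMb1 and H2-DMb2 are near-identical copies, and how their reads were divided is uncertain.

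Promoters are shown for genes whose differences in the libraries below had opposite signs. They hold 250 bases before and 50 after the start of transcription, from RefSeq on GRCm38.p6, a later build than the one used for the counts, and 7 of the 10 genes had one that could be shown. Capitals mark matches, on either strand, to ATTGG (the core of the Y box that NF-Y binds), to the longer CTGATTGG that contains it, and to ACNGATG (part of the X box).
H2-Aa, chr17:34287774-34288073, minus strand: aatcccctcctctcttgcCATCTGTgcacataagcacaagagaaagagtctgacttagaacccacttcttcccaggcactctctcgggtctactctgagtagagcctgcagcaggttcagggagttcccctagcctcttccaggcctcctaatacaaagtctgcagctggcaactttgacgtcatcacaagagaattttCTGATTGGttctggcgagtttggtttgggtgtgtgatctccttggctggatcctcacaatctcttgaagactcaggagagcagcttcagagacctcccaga
H2-Eb1, chr17:34305617-34305916, plus strand: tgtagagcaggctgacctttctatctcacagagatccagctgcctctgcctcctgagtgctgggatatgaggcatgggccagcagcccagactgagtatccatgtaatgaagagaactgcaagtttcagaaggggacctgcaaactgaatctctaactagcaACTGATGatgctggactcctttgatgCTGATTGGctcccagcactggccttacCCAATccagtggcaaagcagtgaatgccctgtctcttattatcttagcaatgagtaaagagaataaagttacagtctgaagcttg
H2-DMb1, chr17:34152941-34153240, plus strand: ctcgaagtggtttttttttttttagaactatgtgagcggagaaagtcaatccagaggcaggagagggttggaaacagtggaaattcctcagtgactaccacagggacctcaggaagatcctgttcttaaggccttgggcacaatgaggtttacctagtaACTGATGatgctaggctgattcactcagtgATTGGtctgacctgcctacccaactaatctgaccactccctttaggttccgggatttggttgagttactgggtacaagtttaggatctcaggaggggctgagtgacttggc
H2-DMa, first of 2 starts, chr17:34122582-34122881, plus strand: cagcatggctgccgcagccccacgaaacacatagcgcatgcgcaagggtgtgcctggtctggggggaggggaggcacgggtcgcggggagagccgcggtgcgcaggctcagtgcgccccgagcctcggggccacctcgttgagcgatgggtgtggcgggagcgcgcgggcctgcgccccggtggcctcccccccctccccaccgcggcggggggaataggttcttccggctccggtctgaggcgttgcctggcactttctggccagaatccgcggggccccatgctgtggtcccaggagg
H2-Ob, chr17:34238655-34238954, plus strand: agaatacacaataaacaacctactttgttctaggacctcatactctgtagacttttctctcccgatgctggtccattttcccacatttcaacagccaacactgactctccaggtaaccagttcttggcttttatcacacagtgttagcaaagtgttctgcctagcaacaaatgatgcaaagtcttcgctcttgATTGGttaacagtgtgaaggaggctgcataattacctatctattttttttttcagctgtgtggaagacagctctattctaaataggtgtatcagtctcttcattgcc
The 7 genes had 8 promoters, since H2-DMa had 2. ATTGG was found in 7 of the 8, against 37.4% of 32851 promoters, CTGATTGG in 3 (H2-Aa, H2-Eb1 and H2-Oa) against 4.10%, and ACNGATG in 5 (H2-Aa, H2-Eb1, H2-DMb1, H2-DMb2 and H2-Oa) against 9.85%. In H2-Eb1 the ACNGATG match began 88 bases and CTGATTGG 62 bases before the start. In H2-DMb1 ACNGATG began at 91 and ATTGG at 61 bases. The matches to ACNGATG and CTGATTGG lay further apart in H2-Oa, at 137 and 46 bases, and in H2-Aa, at 232 and 51 bases. In H2-Aa the ACNGATG match was on the opposite strand to CTGATTGG. H2-Ob had ATTGG alone, 57 bases before the start. H2-DMa had no match at the start shown and ATTGG at its other start, 198 bases before it. Judged by the neighbouring H2-Oa and H2-DMb2, both of these starts lay kilobases before the start of H2-DMa given above. The promoter next to that start was not examined. TTCNNNGAA, the pattern of STAT sites, occurred in 1 of the 8 promoters (H2-DMb2) and in 8.30% of all. A match describes the letters only.

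Library depth was 13525932 to 15253141 counts in spleen and pLNs and 9998478 to 15449158 in mLNs. Plasma cell genes stood out in 1 DKO animal number per tissue. The summed level of 5 plasma cell markers was 547 CPM (counts scaled to a common library size, after TMM normalisation) in DKO Foxp3- replicate 2 and 478 CPM in DKO Treg replicate 2 of mLNs, against 4.66 to 55.9 CPM in the other DKO and 2.95 to 10.7 CPM in the WT libraries. In spleen and pLNs it was 137 and 101 CPM in the Foxp3- and Treg libraries of DKO replicate 1, 28.6 and 21.0 CPM in those of replicate 2, and 4.50 to 8.76 CPM in WT. Results are therefore also given without these pairs. Foxp3 was at 153 CPM or more in every Treg library and at 2.75 CPM or less in every Foxp3- library. Whole-gene counts of Tet2 and Tet3 include exons outside the deletion and did not check the genotype. Tet2 was at 11.4, 7.69 and 12.8 CPM in DKO Treg cells of mLNs and 10.4, 10.4 and 10.8 CPM in WT Treg cells, and Tet3 at 68.5, 48.4 and 73.3 CPM against 69.0, 86.5 and 78.2 CPM.

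In Treg cells of spleen and pLNs, all 3 classical chains were several-fold higher in both DKO libraries than in either WT library. H2-Aa was at 36.1 and 26.8 CPM in DKO replicates 1 and 2 and at 4.07 and 4.45 CPM in WT. H2-Ab1 was at 24.8 and 16.8 CPM against 3.00 and 3.13 CPM, and H2-Eb1 at 24.7 and 17.1 CPM against 3.69 and 2.85 CPM. The fitted differences were 2.88, 2.76 and 2.68 on the log2 scale, or 7.36-, 6.78- and 6.39-fold. Cd74 was at 379 and 247 CPM in DKO and 160 and 139 CPM in WT Treg cells, a 2.1-fold difference. In all 4 genes DKO replicate 1 was the higher of the 2 DKO libraries.

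The genes of the peptide loading compartment did not move as one in these libraries. H2-DMa, the alpha chain of H2-DM, was lower in DKO, at 18.9 and 30.7 CPM against 48.8 and 51.2 CPM (2.02-fold lower), while H2-DMb1 was higher, at 4.18 and 3.89 CPM against 1.15 and 1.46 CPM. H2-Ob was at 24.7 and 38.1 CPM in DKO against 50.1 and 53.2 CPM in WT. H2-DMb2 (2.23 and 3.21 CPM against 1.84 and 1.60 CPM) and H2-Oa (45.9 and 61.0 CPM against 49.2 and 45.1 CPM) differed less. Ciita was at 0.80 and 0.68 CPM in DKO, from 14 and 10 counts, and at 0.23 and 0.42 CPM in WT, from 3 and 6 counts. A difference of at least 1.5-fold, with no test, was seen in 9 of the 10 genes, 7 higher and 2 lower, where 27.1% of the 16357 genes with a count in this table were higher by that much and 11.4% lower. These values chose the set: H2-DMb2 at 1.57-fold was the member just inside that size and H2-Oa, at 0.18 on the log2 scale, the 1 outside it. By the stricter rule of a call used in the other comparisons, 1.14% of these genes were called higher and 0.605% lower in DKO Treg cells, in edgeR's quasi-likelihood test (adjusted p no higher than 0.05, with a change of 1.5-fold or more). Without DKO replicate 1 of both cell types, the differences were 2.65 for H2-Aa, 2.45 for H2-Ab1, 2.40 for H2-Eb1 and 0.73 for Cd74 on the log2 scale.

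**Figure D1:**
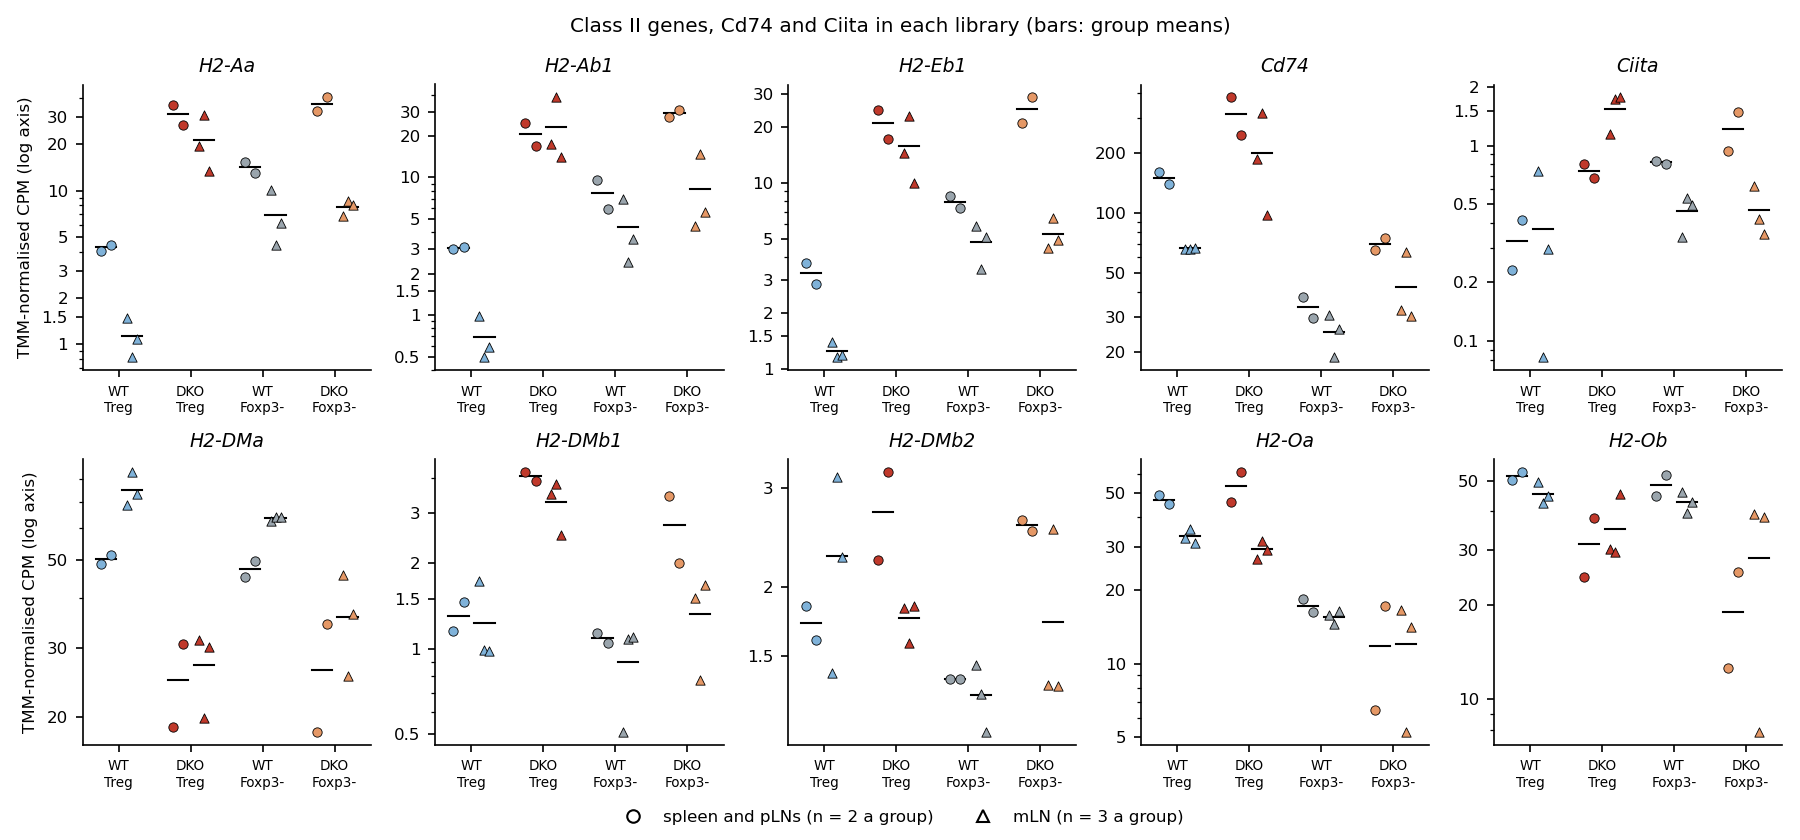
Level of each of the 10 genes in every library, as TMM-normalised CPM on log axes; circles are spleen and pLN libraries (n = 2 a group), triangles mLN libraries (n = 3 a group) and bars group means. The classical chains were lowest in WT Treg cells of both tissues (H2-Aa 0.83 to 4.45 CPM) and higher in every DKO Treg library (13.4 to 36.1 CPM), while H2-DMa was lower in every DKO Treg library than in any WT Treg library of its tissue.

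The mLN libraries, counted in a separate table, were not those used to choose the set, although its choice was made with results of both tables known. In mLN Treg cells, the classical chains, Cd74, Ciita and H2-DMb1 were higher in DKO, and H2-DMa was lower. Of the 10 genes, 6 were called higher and 1 lower, where 8.5% of the 16784 genes were called higher and 3.43% lower. The median difference over the 10 genes was 1.5 on the log2 scale and that over all genes 0.0045. In these bulk libraries, a change in the share of cells that carry an RNA and a change in RNA per cell cannot be told apart.

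H2-Aa was at 19.4, 31.2 and 13.4 CPM in DKO Treg replicates 1, 2 and 3 of mLNs and at 1.48, 0.83 and 1.08 CPM in WT Treg cells. All 3 DKO libraries lay above the WT libraries, and the difference was 4.23 ± 0.39 (log2 ± SE, n = 3 a group), or 18.7-fold, with an edgeR adjusted p of 6.32e-05. H2-Ab1 was at 17.6, 38.1 and 14.2 CPM in DKO against 0.99, 0.50 and 0.59 CPM in WT, the last from 12, 6 and 6 counts. Its difference was 5.05 ± 0.63, or 33.1-fold (edgeR adjusted p = 0.000304). H2-Eb1 was at 14.4, 22.9 and 9.90 CPM against 1.4, 1.16 and 1.18 CPM, 12.5-fold higher (3.65 ± 0.34, edgeR adjusted p = 6.32e-05). In each of these chains DKO replicate 2 was highest and replicate 3 lowest. Without both DKO replicate 2 libraries the 3 differences were 3.85, 4.50 and 3.28 on the log2 scale, and all were still called.

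Cd74 was at 187, 317 and 97.7 CPM in DKO Treg cells of mLNs, in the same order of replicates, and its 3 WT libraries lay close together at 66.1, 65.9 and 66.9 CPM. The difference was 1.60 ± 0.36, or 3.03-fold (edgeR adjusted p = 0.00793), and 1.11 without both DKO replicate 2 libraries. Ciita was at 1.15, 1.72 and 1.76 CPM in DKO (15, 24 and 21 counts) and 0.74, 0.08 and 0.30 CPM in WT (9, 1 and 3 counts), and the groups did not overlap. Its difference of 2.01 ± 0.56 was called (edgeR adjusted p = 0.0234), but rests on few reads. With 1 library left out, the difference ranged from 1.53 to 3.01 on the log2 scale. The call was lost without DKO Treg replicate 2 (adjusted p = 0.0645) or 3 (0.0554) and without WT Treg replicate 2 (0.0814) or 3 (0.0861).

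H2-DMa was the member that fell. It was at 31.4, 19.9 and 30.1 CPM in DKO and 68.6, 83.0 and 73.2 CPM in WT Treg cells, a difference of -1.47 ± 0.19, or 2.76-fold lower in DKO (edgeR adjusted p = 0.0004). Its lowest value was in DKO replicate 2, where the classical chains were highest. H2-DMb1 rose 2.64-fold, from 1.73, 0.99 and 0.98 CPM in WT to 3.51, 3.81 and 2.52 CPM in DKO (1.4 ± 0.39, edgeR adjusted p = 0.0247), a call lost without DKO Treg replicate 1 (adjusted p = 0.0593) or 2 (0.0791) and without WT Treg replicate 2 (0.103) or 3 (0.0958). The difference was -0.37 ± 0.36 for H2-DMb2 and did not pass the test (edgeR adjusted p = 0.518). The chains of H2-DO also did not pass it: H2-Oa was at 27.0, 32.0 and 29.4 CPM in DKO against 32.8, 35.8 and 31.3 CPM in WT, and H2-Ob at 30.2, 29.5 and 45.4 CPM against 49.5, 42.4 and 44.6 CPM (edgeR adjusted p = 0.683 and 0.523).

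**Figure D2:**
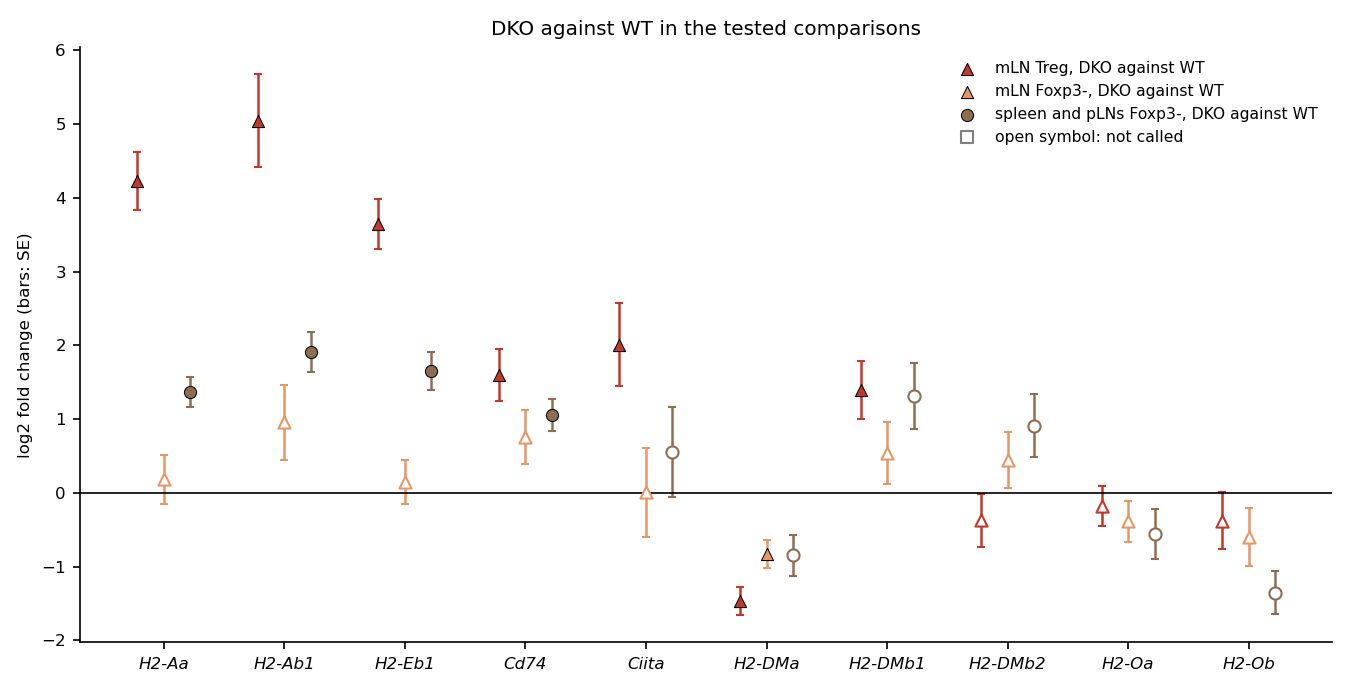
DKO minus WT difference of each gene on the log2 scale in the tested comparisons, with ±1 SE from the edgeR fit. Triangles are mLN Treg and mLN Foxp3- cells, circles Foxp3- cells of spleen and pLNs, and open symbols were not called. In mLN Treg cells the classical chains differ by 3.65 to 5.05 and H2-DMa by -1.47, while in mLN Foxp3- cells the chains differ by 0.15 to 0.96. Treg cells of spleen and pLNs, which were not tested, are not shown.

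In mLN Foxp3- cells the same comparison gave 1 call among the 10 genes, H2-DMa, where 3.12% of genes were called higher and 0.304% lower. H2-DMa was at 45.8, 25.5 and 36.5 CPM in DKO and 62.6, 64.1 and 64.1 CPM in WT, 1.78-fold lower (-0.83 ± 0.19, edgeR adjusted p = 0.0320). That call was lost without DKO Foxp3- replicate 3 (adjusted p = 0.0606), without WT Foxp3- replicate 1 (0.116), 2 (0.110) or 3 (0.110), and with only these 2 groups in the fit (0.125); it held without both DKO replicate 2 libraries (-0.64, edgeR adjusted p = 0.00176). Over all genes the share called lower was 0.305% without DKO Foxp3- replicate 3 and 0.0239% to 0.0538% without 1 WT Foxp3- library. It was 0.00633% with only these 2 groups in the fit and 0.539% without both DKO replicate 2 libraries. H2-Aa was at 6.83, 8.58 and 8.04 CPM in DKO against 10.1, 4.46 and 6.18 CPM in WT, with overlapping groups and a difference of 0.18 ± 0.33 (edgeR adjusted p = 0.824). H2-Eb1 differed by 0.15 ± 0.30 (edgeR adjusted p = 0.846) and Ciita by 0.01 ± 0.61. H2-Ab1 was at 4.44, 14.8 and 5.57 CPM in DKO and 6.98, 2.43 and 3.59 CPM in WT, and Cd74 at 32.7, 63.8 and 30.3 CPM against 30.6, 18.9 and 26.1 CPM. In both genes the highest library was DKO replicate 2, which also had the lowest H2-Oa (5.28 CPM) and H2-Ob (7.88 CPM) of the mLN libraries. The other 2 DKO libraries of H2-Ob were at 39.1 and 38.2 CPM, and WT at 46.1, 39.6 and 42.9 CPM.

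Whether the DKO effect differed between Treg and Foxp3- cells of mLNs was tested as an interaction, for which 0.28% of genes had an adjusted p of at most 0.05. H2-Aa (4.04 ± 0.51, log2) and H2-Eb1 (3.50 ± 0.45) were among them, both with an edgeR adjusted p of 0.00735, and stayed so under each of the 19 alternatives run. H2-Ab1 had a difference of like size, 4.09 ± 0.82, with an adjusted p of 0.0576. It passed when Treg and Foxp3- libraries of the same number and genotype were paired (4.15, edgeR adjusted p = 0.00298) and without both DKO replicate 2 libraries (4.28, edgeR adjusted p = 0.000229), and in all it passed under 6 of 19 alternatives, with adjusted p-values up to 0.203. The share of all genes that passed was 0.703% with these pairs and 3.26% without both DKO replicate 2 libraries. Without both DKO replicate 2 libraries, the interaction of H2-DMa also passed (-0.64, edgeR adjusted p = 0.0247). The interaction of Cd74 was 0.84 ± 0.51 (edgeR adjusted p = 0.606), and that of Ciita 2.0 ± 0.82 (edgeR adjusted p = 0.384).

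Between cell types of mLNs, H2-Aa and H2-Eb1 were lower in Treg cells in WT and higher in Treg cells in DKO. In WT the chains were lower in Treg than in Foxp3- cells, by 6.05-fold for H2-Aa (-2.60 ± 0.40, edgeR adjusted p = 0.000719), 6.12-fold for H2-Ab1 (-2.61 ± 0.66, edgeR adjusted p = 0.0173) and 3.81-fold for H2-Eb1 (-1.93 ± 0.34, edgeR adjusted p = 0.00212). Cd74 (2.64-fold, edgeR adjusted p = 0.0213) and H2-Oa (2.13-fold, edgeR adjusted p = 0.0168) went the other way and were higher in Treg cells. These were 5 calls, 2 higher and 3 lower in Treg cells, where 6.91% and 3.14% of genes were called. Leaving out single libraries left 2 calls without WT Treg replicate 2, 3 without WT Treg replicate 3 or any 1 WT Foxp3- library, and 4 without WT Treg replicate 1, with H2-Aa and H2-Eb1 called each time, and the share of all genes called higher then fell to between 4.57% and 5.31%. In DKO mLNs, H2-Aa was 2.73-fold higher in Treg than in Foxp3- cells (1.45 ± 0.32, edgeR adjusted p = 0.00712), H2-Eb1 2.97-fold (edgeR adjusted p = 0.00246), Cd74 4.73-fold (edgeR adjusted p = 0.00108) and H2-Oa 2.47-fold (edgeR adjusted p = 0.00582). Ciita (3.28-fold, edgeR adjusted p = 0.0441) and H2-DMb1 (2.5-fold, edgeR adjusted p = 0.0328) were also called, making 6 higher and none lower, where 7.75% of genes were called higher and 3.49% lower. With paired libraries 5 were called: Ciita (edgeR adjusted p = 0.0846) and H2-DMb1 (edgeR adjusted p = 0.0688) dropped out, and H2-Ab1 (1.55, edgeR adjusted p = 0.000443) came in from an unpaired value of 1.48 ± 0.48 (edgeR adjusted p = 0.0508). Ciita lost its call whichever single library was left out (edgeR adjusted p from 0.0504 to 0.128). The count fell to 4 without DKO Foxp3- replicate 1 or DKO Treg replicate 1 or 2. Without both DKO replicate 2 libraries 5 were called, with H2-Ab1 among them (1.66, edgeR adjusted p = 0.00132) and not Ciita (0.104) or H2-DMb1 (0.121), where 11.1% of genes were called higher.

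In spleen and pLNs the chains were also higher in Foxp3- cells of DKO animals. H2-Aa was at 33.1 and 40.3 CPM in DKO and 15.34 and 13.1 CPM in WT, 2.58-fold higher (1.37 ± 0.21, n = 2 a group, edgeR adjusted p = 0.0166). H2-Ab1 was at 27.4 and 31.0 CPM against 9.65 and 5.87 CPM (3.76-fold, edgeR adjusted p = 0.0117) and H2-Eb1 at 21.0 and 28.7 CPM against 8.43 and 7.32 CPM (3.15-fold, edgeR adjusted p = 0.0173). Cd74 was at 65.0 and 74.6 CPM against 37.8 and 29.6 CPM (2.07-fold, edgeR adjusted p = 0.0480). These 4 were the calls among the 10 genes, where 0.77% of genes were called higher and 0.0489% lower. H2-DMa was at 18.4 and 34.4 CPM against 45.3 and 49.6 CPM and H2-Ob at 12.6 and 25.5 CPM against 44.7 and 52.3 CPM, and neither passed the test (edgeR adjusted p = 0.184 and 0.0573). With 2 libraries a group the calls are fragile: none of the 10 was called without WT Foxp3- replicate 1 or 2, with only these 2 groups in the fit or with edgeR's own low count filter, and 8 were called without DKO Foxp3- replicate 2, 5 higher and 3 lower. The whole table moved in the same way, with 1 or 2 genes called in all under the settings that called no member, and 9.62% of genes called higher and 7.28% lower without DKO Foxp3- replicate 2. Under the 4 settings with no member called, 5 to 8 members had an unadjusted p under 0.05, and DESeq2 on all libraries called 5. Without DKO replicate 1 of both cell types 5 were called, the 4 above and H2-Ob (-0.92, edgeR adjusted p = 3.44e-07), in a fit where the lone DKO library is assumed to vary like the WT libraries and 2.13% of genes were called higher and 0.498% lower. Cell types were not tested against each other here, since the Treg libraries chose the set. The level of H2-Aa in DKO Treg cells (26.8 and 36.1 CPM) was next to that in DKO Foxp3- cells (33.1 and 40.3 CPM), while Cd74 was at 247 and 379 CPM in the former and 65.0 and 74.6 CPM in the latter.

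Levels per transcript length, the deposited TPM, ordered the genes in each group (group means ± SD, or means alone; n = 3 in mLNs and 2 in spleen and pLNs). In WT Treg cells of mLNs, Cd74 (85.5 ± 3.14 TPM) and H2-DMa (82.6 ± 9.49 TPM) led and overlapped each other, followed by H2-Oa (57.9 ± 4.16 TPM) and H2-Ob (31.1 ± 1.76 TPM), with no overlap between these neighbours. H2-DMb2 (5.29 TPM) and then the classical chains came after them, with H2-DMb1 (1.74 TPM) among the chains, at 1.92 ± 0.51 TPM for H2-Aa, 1.36 ± 0.105 TPM for H2-Eb1 and 1.05 ± 0.363 TPM for H2-Ab1, in an order that did not exceed the spread, and Ciita was last at 0.112 TPM. In DKO Treg cells of mLNs, Cd74 stood alone at 290 ± 153 TPM. Next came H2-Oa (57.7 ± 2.98 TPM), H2-Aa (40.9 ± 16.4 TPM), H2-Ab1 (39.9 ± 21 TPM), H2-DMa (33.9 ± 8.73 TPM), H2-Ob (27.0 TPM) and H2-Eb1 (19.3 ± 7.66 TPM), each overlapping its neighbour. H2-DMb1 (5.26 TPM) and H2-DMb2 (4.6 TPM) overlapped each other below them, and Ciita was last at 0.528 TPM. In WT Foxp3- cells of mLNs H2-DMa led at 64.4 TPM with no overlap, followed by Cd74 (29.8 TPM), H2-Ob (26.9 TPM) and H2-Oa (25 TPM), which overlapped. In DKO Foxp3- cells of mLNs Cd74 (52.9 TPM) and H2-DMa (37.7 TPM) overlapped at the top and the chains were at 12.9 TPM for H2-Aa, 12.4 TPM for H2-Ab1 and 5.6 TPM for H2-Eb1.

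In spleen and pLNs, WT Treg cells had Cd74 at 155 TPM, H2-DMa at 93.8 TPM, H2-Oa at 65.9 TPM and H2-Ob at 28.4 TPM, then H2-Aa at 5.84 TPM, with no overlap between neighbours down to H2-DMb2 (3.21 TPM), which overlapped H2-Eb1 (2.88 TPM). In DKO Treg cells Cd74 was at 422 TPM and H2-Oa at 93.1 TPM, and H2-DMa (57.2 TPM), H2-Aa (55.7 TPM), H2-Ab1 (33.2 TPM), H2-Eb1 (23.8 TPM) and H2-Ob (21.3 TPM) overlapped one with the next. WT Foxp3- cells were again led by H2-DMa (84.9 TPM), ahead of Cd74 (33.4 TPM), and DKO Foxp3- cells by Cd74 (81.7 TPM), ahead of H2-Aa (56.6 TPM) and H2-DMa (54.0 TPM), which overlapped. Ciita was lowest in all 8 groups. H2-Eb2, a second beta chain gene of the locus, did not pass the test in mLN Treg cells (1.21, edgeR adjusted p = 0.144).

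**Figure D3:**
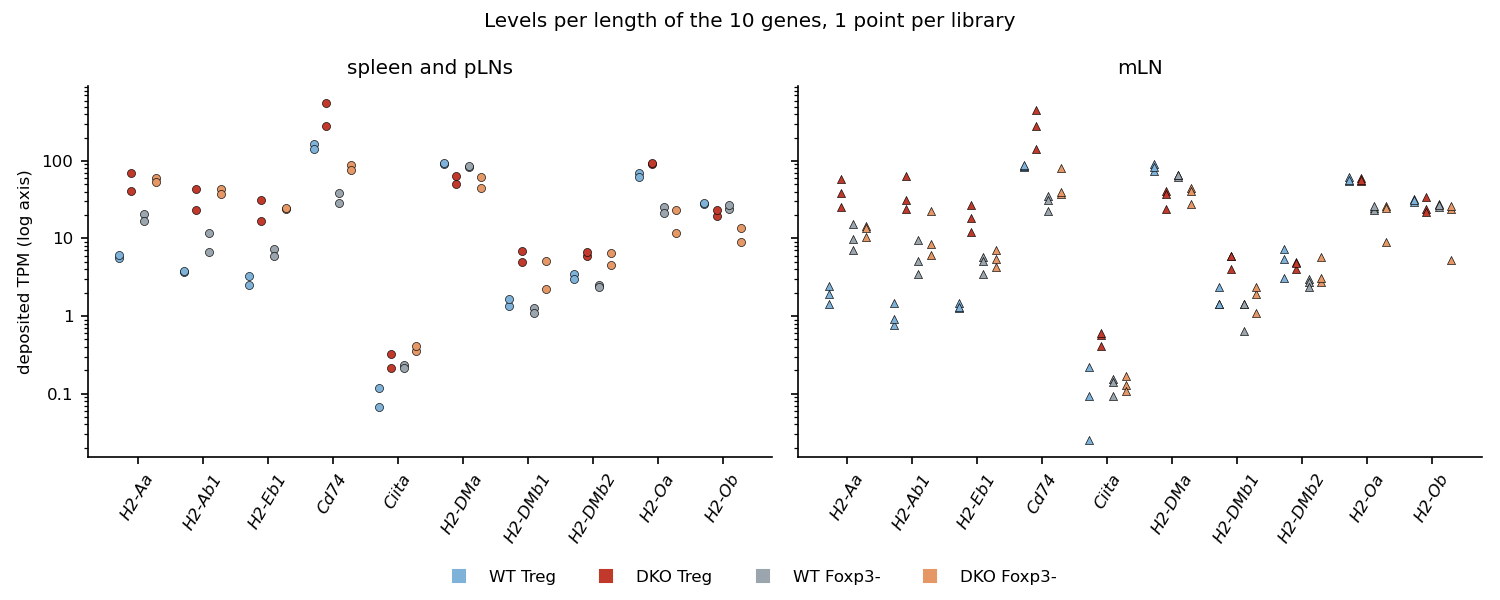
Deposited TPM of the 10 genes (log axis) by group in each tissue, with 1 point per library. Cd74 and H2-DMa lead in WT Treg cells of mLNs at 85.5 and 82.6 TPM with the classical chains near 1 to 2 TPM, and in DKO Treg cells the chains lie among the H2-DM and H2-DO genes.

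The invariant chain and the chains it binds were not present in 1 proportion. The ratio of Cd74 to the sum of the 3 classical chains, in CPM, was 17.1, 26.6 and 23.4 in WT Treg cells of mLNs and 3.64, 3.44 and 2.60 in DKO Treg cells. It was 1.33, 1.83 and 1.76 in WT and 2.08, 2.13 and 1.63 in DKO Foxp3- cells of mLNs. In spleen and pLNs the ratio was 14.8 and 13.3 in WT Treg, 4.43 and 4.06 in DKO Treg, 1.13 and 1.13 in WT Foxp3- and 0.798 and 0.746 in DKO Foxp3- cells. The groups did not overlap between WT and DKO Treg cells in either tissue, and the ratio in DKO Treg cells lay between those of WT Treg and Foxp3- cells. The ratio of H2-Aa to H2-Ab1 was 1.10, 0.819 and 0.947 in DKO Treg cells of mLNs and 1.5, 1.67 and 1.83 in WT. In spleen and pLNs, it was 1.45 and 1.60 against 1.36 and 1.42. The lowest value of all 20 libraries was 0.578, in DKO Foxp3- replicate 2 of mLNs. No test was run on these ratios.

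**Figure D4:**
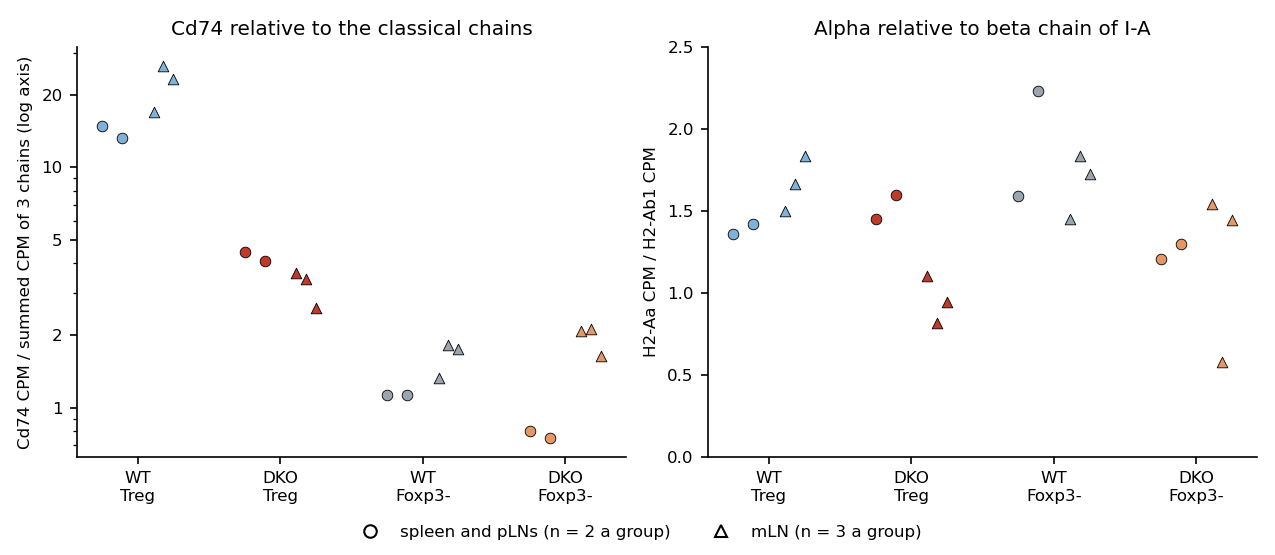
Ratio of Cd74 to the summed classical chains (left, log axis) and of H2-Aa to H2-Ab1 (right) in each library, from TMM-normalised CPM. The first ratio is 13.3 to 26.6 in WT Treg cells and 2.60 to 4.43 in DKO Treg cells.

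Genes around the class II pathway were read from fixed lists. Of 8 factors that act at class II promoters (the RFX subunits, NF-Y subunits, Creb1 and Prdm1), 1 was called in mLN Treg cells. Prdm1, which encodes Blimp-1, a repressor of Ciita in plasma cells, was at 9.70, 15.31 and 17.6 CPM in DKO against 36.6, 34.7 and 36.0 CPM in WT (-1.33 ± 0.31, edgeR adjusted p = 0.0092). Of 9 genes from interferon-gamma to Ciita, none was called higher and 3 lower, among them Ifngr2, a receptor chain (-1.20), and Socs1, a feedback inhibitor (-0.89). Of 7 endosomal proteases and reductases, Ctsh rose (3.17, 5.56 CPM in DKO against 0.603 CPM in WT) and Ctss, which cleaves the invariant chain, fell (-0.85, 321 CPM against 581 CPM). March8, a ubiquitin ligase that removes class II from the surface, was the gene called among 3 of surface turnover, at 33.2, 17.5 and 24.6 CPM in DKO against 0.82, 0.66 and 0.79 CPM in WT (5.04 ± 0.57, edgeR adjusted p = 0.000158). None of 4 costimulatory ligands and neither of the receptors that bind class II, Cd4 and Lag3, was called.

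In mLN Foxp3- cells, March8 (3.15) and Lag3 (2.58) were the calls in these pathway lists, and in Foxp3- cells of spleen and pLNs Ctsh (3.27) and March8 (3.43), all higher in DKO. In WT mLNs, Prdm1 (2.06), Ifngr1 (1.15), Ctss (0.62), Ctsb (0.62), Cd83 (3.65), Lag3 (2.44), Cd80 (2.99) and Cd86 (2.01) were called higher in Treg than in Foxp3- cells. In DKO mLNs the calls were Ifngr1 (0.95), Ctsh (2.23), March8 (2.64) and Cd83 (2.21), higher in Treg cells, and Ifngr2 (-0.81) and Cd4 (-0.75), lower. No gene of any list other than H2-Aa and H2-Eb1 passed the interaction test.

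Markers of the cells that make most class II were measured in the same libraries, and their part in the results was not tested. In mLN Treg cells, 4 of 16 B cell markers were called higher in DKO and 2 lower, with a median of 1.58 on the log2 scale. The 4 were Blk (5.47), Ebf1 (5.07), Cd22 (2.04) and Pax5, which was listed at 0 in every WT Treg library; Cd79b (-1.64) and Bank1 (-2.64) were lower. The summed B cell list was at 60.6, 55.6 and 125 CPM in DKO and 64.7 to 77.1 CPM in WT Treg cells. Its highest library, DKO replicate 3, was the 1 with the lowest classical chains (37.5 CPM summed, against 51.4 and 92.1 CPM in replicates 1 and 2), and held Blk at 64.7 CPM and Cd22 at 30.2 CPM. Of the defining markers, Ms4a1 was at 0.0764, 0.431 and 0.503 CPM in DKO Treg cells of mLNs and at 0.0822, 0 and 0 CPM in WT, where 3 counts make 0.203 to 0.299 CPM across the mLN libraries, so that it was above WT in DKO replicates 2 and 3. Cd79a was at 0.382, 3.45 and 0.839 CPM against 0.657, 1.08 and 0.393 CPM in WT. None of the 16 was at 0 in all 3 DKO Treg libraries, and Pax5, Cr2 and Fcrla were in WT. Of the plasma cell markers, Jchain (6.04) and Derl3 (2.93) were called among 5, with Jchain at 2.14, 412 and 8.89 CPM in DKO replicates 1, 2 and 3.

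Of 18 myeloid markers, 4 were called higher in DKO Treg cells of mLNs, Fcer1g, Itgam (3.7), Cd68 (2.72) and Mpeg1 (1.38), and 2 lower, Ms4a6c (-0.67) and Ms4a6d (-0.82). Fcer1g was at 0.0764, 0.0719 and 36.8 CPM in DKO replicates 1, 2 and 3 and at 0.0822, 0 and 0 CPM in WT, so that its call came from 1 library and the other 2 were at the level of WT. The summed list was at 144, 182 and 172 CPM in DKO and 145 to 163 CPM in WT Treg cells, most of it from genes also read in WT. Lyz2 was at 0.306 to 0.839 CPM and Csf1r at 0 to 0.216 CPM in DKO Treg cells, against 0.827 to 2.22 CPM and 0 to 0.164 CPM in WT, and none of the 18 was at 0 in all 3 DKO Treg libraries; Cd14, Spi1 and Adgre1 were in WT. Of 10 dendritic cell markers, 4 were called higher, Wdfy4 (3.91), Zbtb46 (2.5), Itgax (0.611, 0.503 and 0.168 CPM in DKO, listed at 0 in WT) and Batf3 (also listed at 0 in WT), and Xcr1 (-1.65) was lower. Flt3, Clec9a and Clec4a4 were at 0 in all 3 DKO Treg libraries. The summed dendritic cell list, at 23.9, 20.8 and 16.9 CPM in DKO, did not overlap that of WT (10.7 to 12.3 CPM), and its order of replicates differed from that of the classical chains. Among plasmacytoid dendritic cell markers, Ccr9 (-2.86) and Pacsin1 (-0.68) were lower of 6 and none higher, and neither of 2 neutrophil markers was called. Of 9 T cell genes, Lat (-0.80) and Il2ra (-1.12) were lower in DKO Treg cells.

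Between the cell types of WT mLNs, where the chains were lower in Treg cells, 8 of 10 dendritic cell markers had values below 0 for Treg minus Foxp3- cells as well, with a median of -1.12 on the log2 scale. Of these Itgax was called, listed at 0 in every WT Treg library and at 0.596, 0.270 and 0.399 CPM in WT Foxp3- cells, and Zbtb46 (2.69) was called higher. Of 18 myeloid markers, Itgam (0.669 against 5.39 CPM) and Fcgr3 (0.137 against 1.54 CPM) were called lower and Lyz2 (2.34) higher, with a median of -0.37, and of 16 B cell markers Cd79b (3.99) and Bank1 (1.09) were called higher. In DKO mLNs, where H2-Aa and H2-Eb1 were higher in Treg cells, Blk (5.6), Cd68 (1.93) and Zbtb46 (2.92) were called higher in Treg cells and Fcgr3 (-2.28) and Flt3, listed at 0 in DKO Treg cells, lower. The part of these markers in the results was not tested.

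In mLN Foxp3- cells, Bank1 (-1.36), Zbtb46 (2.28), Xcr1 (-1.75) and Ccr9 (-1.49) were the calls in the lists of other cell types. Of the 9 T cell genes, Ctla4 (1.89, 97.7 against 26.4 CPM) and Ikzf2 (0.93, 50.1 against 26.3 CPM), which are both abundant in Treg cells, were called higher in DKO Foxp3- cells. The dendritic cell list was highest in DKO replicate 2, where the summed chains of the Foxp3- libraries were highest too (20.8 CPM for the list, against 14.5 and 11.4 CPM in the others and 13.47 to 14.8 CPM in WT). In Foxp3- cells of spleen and pLNs, where the chains were called, 0 of 16 B cell and 0 of 18 myeloid markers were called, but 13 and 15 of them were higher in DKO, with medians of 2.37 and 1.57. Of 12 dendritic cell markers 10 were higher (median 2.30), and all 7 neutrophil markers were (median 5.27, a fitted value, since 6 of them were listed at 0 in WT Foxp3- cells), with no neutrophil marker called. The summed neutrophil list was at 5.21 and 1.85 CPM in DKO replicates 1 and 2 and 1.60 and 1.13 CPM in WT. Igj (4.68) among plasma cell and Wdfy4 (3.98) among dendritic cell markers were called. The dendritic cell list was at 25.7 and 30.8 CPM in DKO against 19.5 and 21.0 CPM in WT, with the same higher replicate as the chains (81.5 and 100.03 CPM summed), while the B cell and plasma cell lists were higher in the other replicate. That order of the dendritic cell list rested on Naaa (7.47 and 16.8 CPM in DKO replicates 1 and 2, 16.8 and 15.1 CPM in WT). Without Naaa the order of the DKO replicates was the reverse. In Treg cells of spleen and pLNs the chains (85.6 and 60.8 CPM in DKO), the B cell list (77.2 and 47.9 CPM, WT 57.4 and 61.4 CPM), the plasma cell list and the dendritic cell list (22.9 and 19.4 CPM, WT 16.8 and 17.3 CPM) were all higher in replicate 1, and the myeloid list (163 and 191 CPM, WT 208 and 210 CPM) in replicate 2. The sum of the myeloid list was carried by genes that were abundant in WT Treg cells too, such as Cst3 (76.1 and 98.8 CPM in DKO, 113 and 107 CPM in WT). Counted by gene and without a test, 10 of 16 B cell markers (median 1.06 on the log2 scale), 14 of 18 myeloid markers (median 0.88), 7 of 12 dendritic cell markers (median 1.56), all 5 plasma cell markers (median 2.18) and 5 of 7 neutrophil markers were higher in DKO Treg cells of spleen and pLNs, where the median over all genes was 0.018. Ms4a1 was at 5.72 and 1.16 CPM in DKO replicates 1 and 2 against 0.0769 and 0.209 CPM in WT. Csf1r was at 2.98 and 0.887 CPM against 0.0769 and 0.0696 CPM, and Itgam at 15.5 and 6.49 CPM against 0.999 and 1.32 CPM. In these 3 genes, as in the chains, both DKO libraries lay above WT and replicate 1 was highest. Of the same lists, 6 B cell and 4 myeloid markers were lower in DKO. Cd79b was at 5.27 and 7.65 CPM in DKO against 28.8 and 26.2 CPM in WT. Bank1, Ms4a6c and Ms4a6d were also lower in both DKO libraries than in WT. The part of these markers in the differences of the class II genes was not tested.

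**Figure D5:**
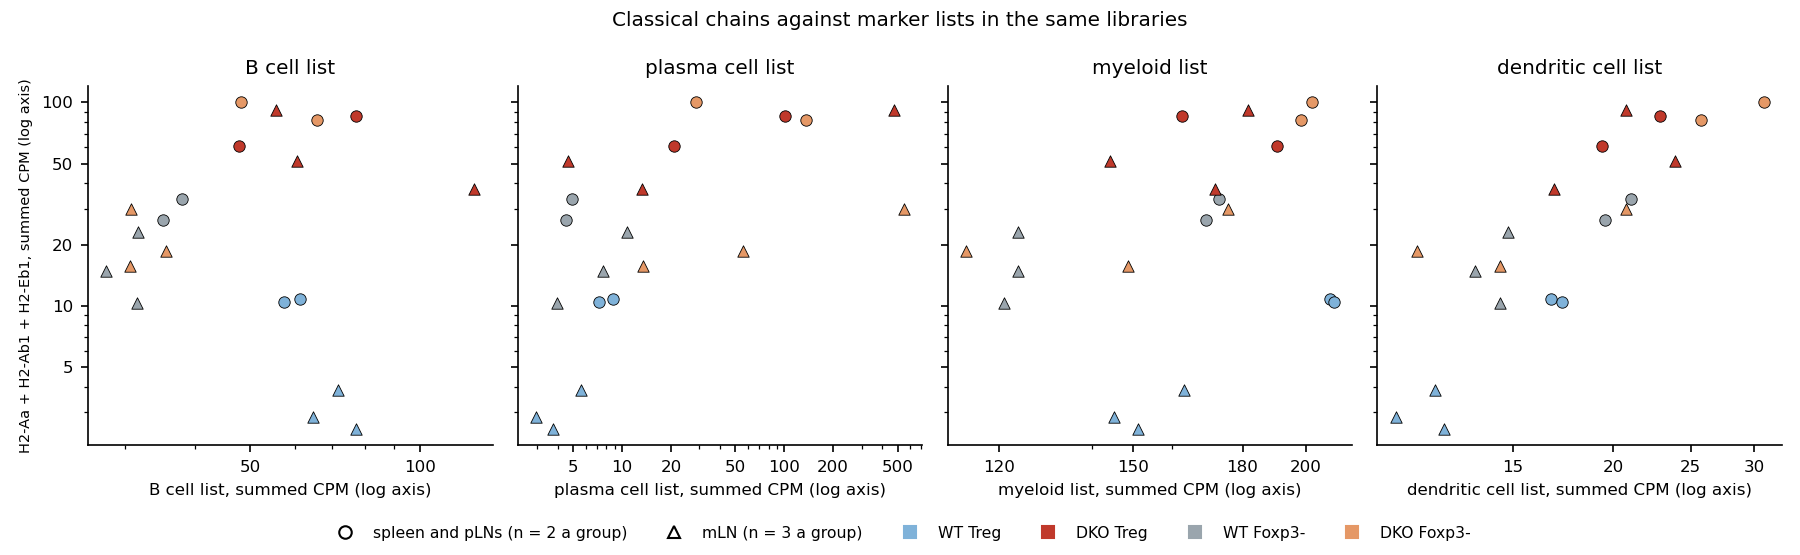
Summed CPM of H2-Aa, H2-Ab1 and H2-Eb1 against the summed CPM of each marker list in the 20 libraries (log axes; circles spleen and pLNs, triangles mLNs). In mLN Treg cells the chains separate WT (2.48 to 3.86 CPM) from DKO (37.5 to 92.1 CPM), while the B cell and myeloid lists of WT and DKO overlap, the plasma cell list is high in 1 of the 3 DKO libraries, and the dendritic cell list separates DKO (16.9 to 23.9 CPM) from WT (10.7 to 12.3 CPM) as the chains do.

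The likeness of a gene to the class II pattern was taken as Pearson r between its log2 CPM and the mean standardised log2 CPM of H2-Aa, H2-Ab1, H2-Eb1 and Cd74, over 12 mLN libraries that fall into 4 groups and share their depth and scaling. Of 11175 genes, H2-Eb1 (0.974), H2-Ab1 (0.967) and H2-Aa (0.942), which enter that mean, were among the most alike. Cd74, which also enters it, was less alike, at 0.654. The 5 most alike outside the set were Hdlbp (0.965), Pgd (0.947), Ywhah (0.945), Gpc1 (0.932) and Asna1 (0.931). Hdlbp was at 196 to 221 CPM in DKO Treg and 129 to 137 CPM in WT Treg cells. Among the set, H2-DMa had the most opposed profile (-0.908), and H2-Oa (-0.067) and H2-DMb2 (-0.10) varied apart from it. Over the 8 spleen and pLN libraries and 10950 genes, the most alike outside the set were Exoc7 (0.988), Prkcz (0.984), Gm13498 (0.976), Hsp90ab1 (0.974) and Spon1 (0.967), with H2-DMa at -0.861. Cd74 was at 0.395 there and H2-Ob at -0.748. Spon1 was listed at 0 in all 4 WT libraries and was at 28.0 and 10.4 CPM in DKO Treg and 9.48 and 4.82 CPM in DKO Foxp3- cells. The 2 lists shared no gene.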

How the data were processed

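RNA was measured in 20 libraries. Per the labels and the study's methods, the authors aligned single-end reads from a stranded poly(A) kit with TopHat2 2.1.1 to mm9, keeping unique hits, and counted reads per RefSeq gene by strand with featureCounts (Subread 1.4.3-p1). The deposited tables hold raw counts and TPM for each library, and how the authors calculated TPM is not given in the sources used here. In the spleen and pLN table, 24 symbols had been turned into dates and were read from the second name column.

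Each table was analysed on its own. Genes were fitted if their total reached 1 count, with edgeR 4.0.16 in R 4.3.3 (TMM, glmQLFit and glmQLFTest, the 4 groups of a tissue in 1 fit, no block), with Benjamini-Hochberg adjustment over all genes of the table. A call needed an adjusted p no higher than 0.05 with a change of 1.5-fold or more, or the adjusted p alone for the interaction. The SE is the absolute log2 fold change over the square root of F. Levels are CPM after TMM scaling, and levels between genes are deposited TPM. The biological coefficient of variation was 21.6% in spleen and pLNs and 17.7% in mLNs, and 3 counts correspond to 0.172 to 0.241 and 0.203 to 0.299 CPM. No replicates differed by as little as sampling noise. Floors from counts cover counting error only.

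The set, the lists and the tests were chosen with earlier results of these data known. Named were the 10 genes, up to 6 called genes a list and comparison with the list's most abundant genes, Tet2, Tet3 and the 5 most alike genes outside the set a table; defining markers such as Ms4a1, Csf1r and Flt3 were added after their values were seen. Some items of the lists are not reported here. Cd209a, Clec10a, H2-Ea and 6 neutrophil markers were not analysed here in mLNs. Treg and Foxp3- libraries of the same number and genotype deviated together in mLNs (r of 0.110 to 0.390 in DKO and 0.171 to 0.183 in WT, over genes) and were treated as pairs in an alternative, although DKO replicate 1 correlated better with another number (0.160) than with its own. Numbers did not pair WT with DKO (r of -0.0483 to 0.114), and spleen and pLNs had too few pairs to judge. Alternatives were DESeq2 1.42.0, its size factors, edgeR's filterByExpr, only the groups compared, the replicate block, and leaving out each library or both libraries of a DKO animal number.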

Additional observations from a re-analysis of the deposited data

Results flagged for a closer look

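The effect of the knockout differed between the cell types of mLNs for H2-Aa and H2-Eb1 by the interaction test in edgeR. The DKO minus WT difference on the log2 scale was 4.23 in Treg and 0.18 in Foxp3- cells for H2-Aa, a difference of 4.04 (edgeR adjusted p = 0.00735). For H2-Eb1 it was 3.65 in Treg and 0.15 in Foxp3- cells, a difference of 3.50 (edgeR adjusted p = 0.00735). All 3 DKO Treg libraries lay above all 3 WT Treg libraries in both genes, and the Foxp3- groups overlapped. Levels of class II genes in other cell types of these animals were not measured, and the part of such cells in the difference was not tested.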

How the results depend on the processing

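Of 890 single-gene values recomputed under an alternative in the tested comparisons, 785 kept their direction and their side of the threshold, 60 lost the call, 23 gained it and 22 changed sign. Of 110 in Treg cells of spleen and pLNs, which have no test, 1 changed sign (H2-Oa, -0.0413 without DKO Treg replicate 2) and 1 moved by more than the SD between replicates (Ciita, 1.65 without WT Treg replicate 2). In mLN Treg cells, the differences of H2-Aa, H2-Ab1, H2-Eb1, Cd74 and H2-DMa were called under all 14 alternatives. With 1 library left out, 934 to 1348 of all genes were called higher there and 391 to 598 lower, of 16626 to 16741 tested. The count of members called was then 5 to 7. It was 0 to 1 in mLN Foxp3- cells (0 with only the 2 groups, where 2 members had an unadjusted p under 0.05 and DESeq2 on all libraries called 1), 2 to 4 for WT and 4 to 6 for DKO Treg against Foxp3- cells (3 with only the 2 groups), 2 to 4 for the interaction (4 without both DKO replicate 2 libraries) and 0 to 8 in Foxp3- cells of spleen and pLNs (0 with filterByExpr or only the 2 groups, where 8 and 7 members had an unadjusted p under 0.05 and DESeq2 called 5). Over all genes, leaving out 1 library gave 53 to 1201 called higher and 4 to 252 lower in mLN Foxp3- cells. It gave 764 to 888 higher and 344 to 391 lower for WT Treg against Foxp3- cells. For DKO it gave 1045 to 1878 higher, and for the interaction 9 to 462 in either direction. With only the 2 groups, 1 gene was called higher and 1 lower in mLN Foxp3- cells, and 590 higher and 316 lower between DKO cell types. In Treg cells of spleen and pLNs the count of members at 1.5-fold or more was 8 to 9. The cause of these changes was not tested beyond the smaller number of libraries or genes in the fit.

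With the replicate block the counts of calls were 7 in mLN Treg cells, 1 in mLN Foxp3- cells, 6 for DKO Treg against Foxp3- cells (H2-Ab1 came in with an edgeR adjusted p of 0.0397, and Ciita dropped out at 0.0566), 2 for the interaction and 4 in Foxp3- cells of spleen and pLNs, where H2-Ob came in (-1.41, edgeR adjusted p = 0.0423) and Cd74 dropped out (edgeR adjusted p = 0.0684). Paired within genotype, they were 5 for WT and 5 for DKO Treg against Foxp3- cells and 3 for the interaction, and apart from these and the changes given beside the comparisons the replicate block changed no call. Over all genes, the replicate block called 8.48% higher and 3.77% lower in mLN Treg cells and 3.0% and 0.357% in mLN Foxp3- cells. For DKO Treg against Foxp3- cells it called 7.86% and 3.47%, and for the interaction 0.238% in either direction. In Foxp3- cells of spleen and pLNs it called 0.55% and 0.0489%. Pairs gave 7.15% and 3.43% for WT, 8.0% and 3.64% for DKO and 0.703% for the interaction.

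In the tested comparisons signs changed only for values that were not called. With the replicate block the difference of Ciita in mLN Foxp3- cells was -0.0138. Without both DKO replicate 2 libraries that of H2-Eb1 there was -0.0274, that of H2-Ob between DKO cell types -0.0439, and the interactions of H2-Oa and H2-Ob -0.22 and -0.11. H2-DMb2 between DKO cell types was -0.00129 with DESeq2 size factors, -0.0059 with the DESeq2 test and -0.0189 with only the 2 groups. With 1 library left out, Ciita ranged from -0.23 to 0.16, H2-Eb1 from -0.0490 to 0.33 and H2-Aa from -0.0637 to 0.57 in mLN Foxp3- cells, Ciita from -1.29 to 0.19 between WT cell types, H2-DMb2 from -0.18 to 0.36 and H2-Ob from -0.18 to 0.60 between DKO cell types, and the interactions of H2-Oa from -0.19 to 0.50 and of H2-Ob from -0.26 to 0.51. Depth limits Ciita, with at most 24 counts a library.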
